A study of Homo sapiens with 16 samples.

Results

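The NOTCH genes described here are 10 members fixed by name. They are the receptors NOTCH1, NOTCH2 and NOTCH3, the ligands JAG1, JAG2 and DLL1, and the targets HES1, HES4, HEY1 and NRARP. Each symbol was matched to 1 Ensembl identifier among the 60666 genes in the deposited tables. The choice is by name and sets no bound on a measured value, but it was made with earlier results of these data known. The filter on low counts was passed by 22597 genes and by 8 of the 10 members, HES4 and NRARP being the exceptions. All samples were U2OS, an established human sarcoma line. The 4 genotypes were stable and selected with puromycin: the empty plko.puro vector, a short hairpin RNA to PIP4K2A, the same to PIP4K2B, or both hairpins. PIP4K2A and PIP4K2B encode lipid kinases that act on phosphatidylinositol 5-phosphate. Each genotype was either untreated or harvested 6 h after ultraviolet C light at 30 J/m2, called UV below, and each of the 8 groups had 2 libraries. Empty-vector cells carry no hairpin, so each knockdown against empty vector sets a hairpin line beside a line without one. The labels do not say whether replicates were separate cultures or how many clones a line holds. Empty-vector untreated replicate 1 was set aside, which leaves 1 library in that group and 15 in all.

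NOTCH receptors are single-pass proteins of the cell surface that are switched on by ligands of the Jagged and Delta families on a neighbouring cell. Binding exposes the receptor to an ADAM protease and then to gamma-secretase, which frees the intracellular domain to enter the nucleus. There it binds the DNA-binding protein RBPJ and the Mastermind-like coactivators and turns on targets such as the HES and HEY repressors and NRARP, which feeds back on the pathway. In the bone lineage the pathway is known for regulating osteoblast differentiation.

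The promoters of the HES genes are shown because they carry the DNA letters that RBPJ reads, and that of NOTCH3 because the largest member differences were found in that gene. The sequences are from RefSeq on GRCh38.p14, 250 bases before the start, 5′ to 3′ on the gene's strand, with the RBPJ core TGGGAA in capitals. HES1 lies at chr3:194135898-194136147 (plus strand), HES4 at chr1:1000098-1000347 (minus strand) and NOTCH3 at chr19:15200996-15201245 (minus strand).
HES1: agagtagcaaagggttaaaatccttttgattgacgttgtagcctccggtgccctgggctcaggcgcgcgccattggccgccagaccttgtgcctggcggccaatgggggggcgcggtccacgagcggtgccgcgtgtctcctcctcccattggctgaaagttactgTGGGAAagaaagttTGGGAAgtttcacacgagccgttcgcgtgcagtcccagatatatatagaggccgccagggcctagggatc
HES4: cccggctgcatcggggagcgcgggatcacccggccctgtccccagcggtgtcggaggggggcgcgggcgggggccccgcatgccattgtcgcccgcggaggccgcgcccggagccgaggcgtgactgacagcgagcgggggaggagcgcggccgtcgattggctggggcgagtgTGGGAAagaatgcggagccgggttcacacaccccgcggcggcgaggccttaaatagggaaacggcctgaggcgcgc
NOTCH3: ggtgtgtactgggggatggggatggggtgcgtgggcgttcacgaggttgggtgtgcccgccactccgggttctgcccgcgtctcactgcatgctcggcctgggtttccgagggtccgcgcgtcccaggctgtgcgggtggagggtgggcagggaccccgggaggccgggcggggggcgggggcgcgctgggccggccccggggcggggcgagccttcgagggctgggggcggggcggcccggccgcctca
HES1 held 2 copies of the core, 84 and 70 bases before the start, and HES4 held 1, 76 bases before it. On both strands, TGGGAA was found in 2 of the 8 members whose RefSeq promoter was read and in 20.85% of all 35116 promoters. The N-box CACNAG, a site of HES proteins, was found in 2 of the 8, with 3 copies in HES1 and 1 in NOTCH3, and in 32.04% of all promoters. No N-box overlapped a TGGGAA. A match describes letters and is not a bound site. No promoter was read for DLL1 or HEY1.

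On GRCh38 with the GENCODE 29 annotation, NOTCH1 (ENSG00000148400) lies at chr9:136494433-136545786, NOTCH2 (ENSG00000134250) at chr1:119911553-120069626 and NOTCH3 (ENSG00000074181) at chr19:15159038-15200981, all on the minus strand. JAG1 (ENSG00000101384) lies at chr20:10637684-10673999, JAG2 (ENSG00000184916) at chr14:105140981-105168824 and DLL1 (ENSG00000198719) at chr6:170282206-170306565, also on the minus strand. HES1 (ENSG00000114315) lies at chr3:194136145-194138732 on the plus strand, HES4 (ENSG00000188290) at chr1:998962-1000172 and NRARP (ENSG00000198435) at chr9:137300482-137302251, both on the minus strand. HEY1 is ENSG00000164683.

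The 15 libraries held 28.0 to 39.9 M expected counts each, and the one set aside held 1.28 M. PIP4K2A stood at 51.5 to 62.9 CPM (each count scaled to its library's total) in empty-vector cells and at 7.48 to 22.9 CPM in lines with its hairpin. PIP4K2B stood at 76.1 to 107 CPM in empty-vector cells and at 11.4 to 26.6 CPM in lines with its hairpin. Among 8 bone and mesenchymal markers COL1A2 and TWIST1 were under 1 CPM in all 15 libraries, while the summed level of the list was 4357 to 7216 CPM. In bulk RNA, fewer cells of a type and less RNA per cell cannot be told apart. Since nothing shows that replicates were separate cultures, p-values measure the spread between these libraries, which may be technical.

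By level per transcript length, in the authors' TPM, NOTCH2 was first of the members in 15 of 15 libraries, with a median of 31.3 TPM. NOTCH3, JAG1, HES1 and NOTCH1 followed with medians of 6.76, 6.36, 6.24 and 5.33 TPM, which lie close together. Each of them held ranks from 2 to 5 in different libraries, and NOTCH3 was at rank 2 in 5 libraries and at rank 5 in 5. HEY1 had a median of 0.74 TPM, JAG2 of 0.41 and DLL1 of 0.06. HES4 had 0 counts in every one of the 15 libraries, which allows up to 0.0752 to 0.107 CPM per library at 3 counts, an allowance for counting error only. NRARP had 16 counts in all, was above 0 in 8 of 15 libraries and reached at most 0.138 CPM. No test was made for these 2 targets.

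**Figure D1:**
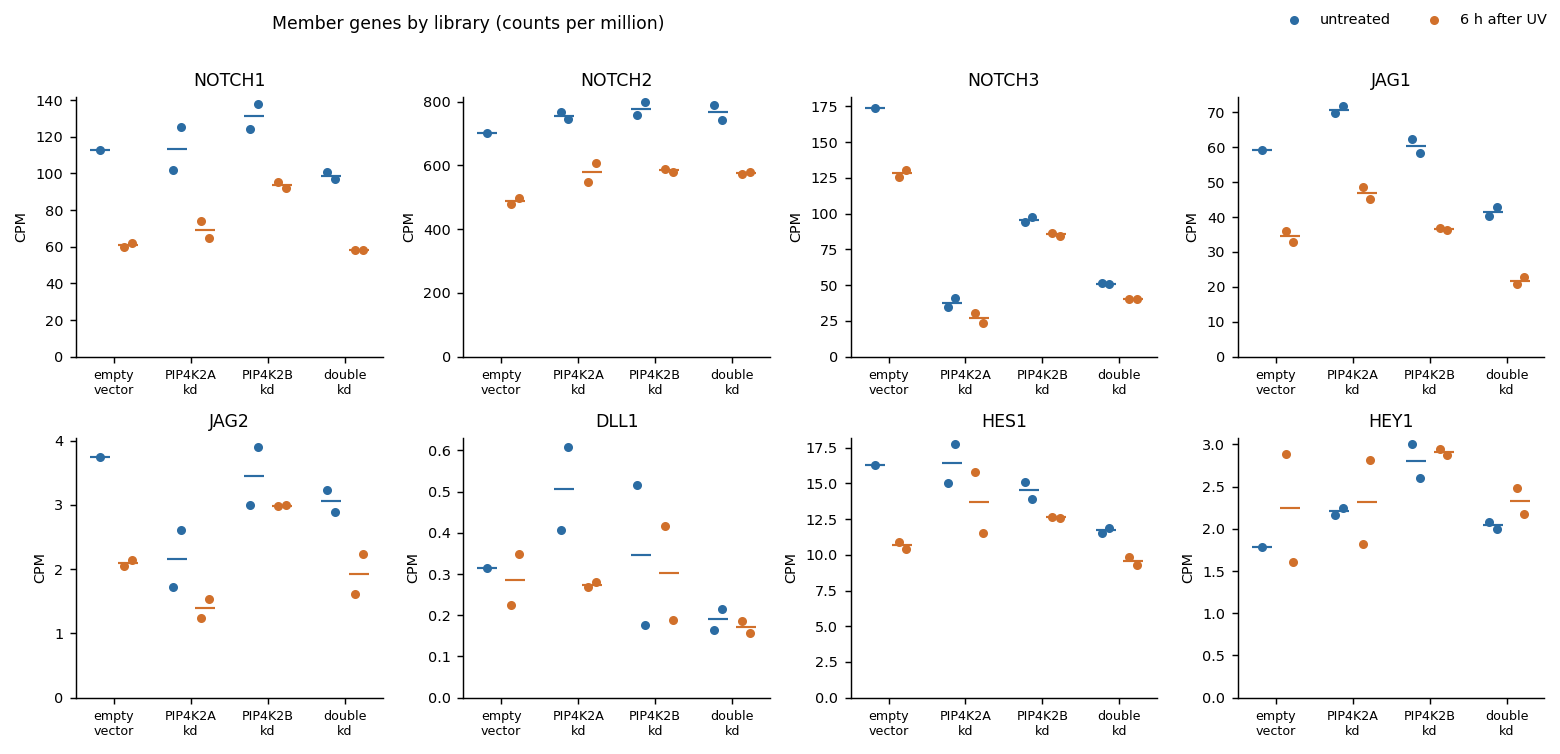
Level in CPM of the 8 tested members in each of the 15 libraries (points, vertical axis starting at 0) with the group mean (line), untreated in blue and 6 h after UV in orange; kd is knockdown. NOTCH3 is highest in the empty-vector libraries, at 174 CPM untreated, and lowest in the PIP4K2A knockdown after UV, at 23.4 and 30.6 CPM.

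NOTCH3, a receptor best known from vascular smooth muscle, was lower in every knockdown line than in empty-vector cells. Untreated, it was 174 CPM in the empty-vector library. It was 34.7 and 40.9 CPM in the PIP4K2A knockdown, 94.0 and 97.8 CPM in the PIP4K2B knockdown and 51.2 and 50.7 CPM in the double knockdown. After UV it was 126 and 130 CPM in empty-vector cells, 30.6 and 23.4 CPM in the PIP4K2A knockdown, 86.3 and 84.5 CPM in the PIP4K2B knockdown and 40.0 and 40.6 CPM in the double knockdown. The genotypes therefore stood in the same order with and without UV, and none of the 4 overlapped another within a treatment.

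In edgeR's quasi-likelihood test with Benjamini-Hochberg adjustment over all genes, NOTCH3 fell by 2.24 on the log2 scale in the untreated PIP4K2A knockdown (SE 0.139, adjusted p = 4.67e-06), which is 4.72-fold. It fell by 1.80 in the untreated double knockdown (SE 0.139, adjusted p = 2.37e-05) and by 0.83 in the untreated PIP4K2B knockdown (SE 0.139, adjusted p = 0.00235). After UV it fell by 2.29 in the PIP4K2A knockdown (adjusted p = 4.6e-07), a 4.88-fold difference, and by 1.62 in the double knockdown (adjusted p = 3.81e-06). In the PIP4K2B knockdown after UV it fell by 0.51 (SE 0.117, adjusted p = 0.00931), a call that ended without PIP4K2B-knockdown UV replicate 1 (-0.53, adjusted p = 0.0520) or 2 (-0.48, 0.0694) and without empty-vector UV replicate 2 (-0.46, 0.0684). The untreated contrasts rest on 1 empty-vector library, assumed to vary like the other groups.

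The knockdown lines also differed from one another. NOTCH3 was higher in the PIP4K2B than in the PIP4K2A knockdown by 1.41 untreated and 1.78 after UV on the log2 scale, and lower in the double than in the PIP4K2B knockdown by values of -0.97 and -1.11. All 4 of these differences passed the test, and that of 1.78 missed it when the groups compared were fitted alone (1.79, adjusted p = 0.0535). The double knockdown stood above the PIP4K2A knockdown by 0.67 after UV (adjusted p = 0.00255), which likewise missed it with the groups compared fitted alone (0.67, adjusted p = 0.0848). Untreated that difference was 0.44 (adjusted p = 0.0451), and it held in 11 of 24 alternatives. It ended, among others, without PIP4K2A-knockdown untreated replicate 1 (0.31, adjusted p = 0.320), without double-knockdown untreated replicate 1 (0.42, 0.188) or 2 (0.44, 0.199), and without any PIP4K2B-knockdown library, empty-vector UV library or double-knockdown UV library (0.43 to 0.44, 0.0642 to 0.0727).

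NOTCH3 is known from smooth muscle and pericytes, so the markers of those cells were read beside it. Their 6 genes summed to 356 CPM in the untreated empty-vector library, to 275 to 300 CPM in the untreated PIP4K2A knockdown, to 335 to 343 CPM in the PIP4K2B knockdown and to 338 to 352 CPM in the double knockdown. After UV the sums stood differently, at 312 to 318 CPM in empty-vector cells, 271 to 351 CPM in the PIP4K2A knockdown, 366 to 379 CPM in the PIP4K2B knockdown and 358 to 361 CPM in the double knockdown. The 6 epithelial markers summed to 239 CPM in the untreated empty-vector library against 386 to 479 CPM in the untreated knockdown lines, and to 292 to 296 CPM against 549 to 934 CPM after UV. The 8 bone and mesenchymal markers summed to 7216 CPM in the untreated empty-vector library and to 4357 to 5951 CPM in the untreated knockdown lines. After UV they summed to 6729 to 7028 CPM in empty-vector cells and to 5276 to 6894 CPM in the PIP4K2A knockdown. In the PIP4K2B knockdown they summed to 5207 to 5468 CPM, and in the double knockdown to 6186 to 6257 CPM. A few genes set each sum. Over the 15 libraries the epithelial markers other than KRT8 and KRT18 reached at most 9.66 CPM. Smooth muscle and pericyte markers other than MCAM, CSPG4 and CNN1 reached at most 6.01 CPM. Bone and mesenchymal markers other than COL1A1, SPARC and VIM reached at most 60.1 CPM. The part of these markers in the NOTCH3 result was not tested.

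NOTCH1 and NOTCH2 did not share that pattern in untreated cells. NOTCH1, the receptor mutated in T-cell leukaemia, was 113 CPM untreated in empty-vector cells, 102 and 125 CPM in the PIP4K2A knockdown, 124 and 138 CPM in the PIP4K2B knockdown and 101 and 96.9 CPM in the double knockdown. In UV libraries it was 60.0 and 61.9 CPM in empty-vector cells, 73.9 and 64.6 CPM in the PIP4K2A knockdown, 95.1 and 91.8 CPM in the PIP4K2B knockdown and 58.0 and 58.5 CPM in the double knockdown. All 8 UV libraries lay below all 7 untreated libraries. After UV the PIP4K2B knockdown stood above the other genotypes.

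Expressed against all genes, with the composition factors of the fit, NOTCH1 fell after UV by 0.63 in empty-vector cells (SE 0.13, adjusted p = 0.00576), by 0.46 in the PIP4K2A knockdown (SE 0.11, adjusted p = 0.00746) and by 0.43 in the double knockdown (SE 0.11, adjusted p = 0.00883). In the PIP4K2B knockdown the value was -0.18 (SE 0.11, adjusted p = 0.227). There NOTCH1 was called lower in 3 alternatives. They were the groups compared fitted alone, which keeps composition factors, library totals alone, and ribosomal protein gene scaling. The UV response of the PIP4K2B knockdown exceeded that of empty-vector cells by 0.45 (unadjusted p = 0.0214 in edgeR), which did not pass after adjustment, so the responses were not shown to differ. After UV, NOTCH1 was higher in the PIP4K2B knockdown than in empty-vector cells by 0.70 (SE 0.111, adjusted p = 0.000839). It was also higher there than in the PIP4K2A knockdown by 0.55, a call that ended without PIP4K2B-knockdown UV replicate 1 (0.53, adjusted p = 0.0521) and with the groups compared fitted alone (0.56, 0.107).

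Composition factors set the UV values of every gene. They added 0.26, 0.25, 0.31 and 0.33 on the log2 scale to the UV changes of empty-vector cells, the PIP4K2A, the PIP4K2B and the double knockdown. With library totals alone, a setting added after the data were seen, the median UV change of all genes moved to -0.23, -0.24, -0.30 and -0.30, and NOTCH1 in the PIP4K2B knockdown was then called at -0.49. Library totals and ribosomal protein gene scaling both lowered the UV values of genes as a whole. They therefore could not test the direction of the UV falls of NOTCH1 and JAG1.

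NOTCH2, the receptor with the highest level, was 702 CPM in the untreated empty-vector library and 743 to 798 CPM in the 6 untreated knockdown libraries. After UV it was 479 and 496 CPM in empty-vector cells, 548 and 609 CPM in the PIP4K2A knockdown, 590 and 579 CPM in the PIP4K2B knockdown and 573 and 580 CPM in the double knockdown. Each UV library was below each untreated one in CPM, and after UV the empty-vector libraries were the lowest. The fitted UV changes were -0.27 (adjusted p = 0.066), -0.13, -0.11 and -0.08 in the 4 genotypes in the order above. None passed in the main edgeR fit. With library totals alone the UV changes were -0.53, -0.39, -0.41 and -0.41, and all 4 passed. The fall in empty-vector cells lay near the threshold and passed in 7 alternatives. They were library totals, ribosomal protein gene scaling, DESeq2, the CPM filter, the groups compared fitted alone, and either PIP4K2A-knockdown UV replicate left out. The changes in the PIP4K2A, PIP4K2B and double knockdown passed in 3, 2 and 3 alternatives.

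After UV, NOTCH2 was higher than in empty-vector cells by 0.34 in the PIP4K2B knockdown (SE 0.078, adjusted p = 0.00907) and by 0.29 in the double knockdown (SE 0.078, adjusted p = 0.0254). The first call ended without empty-vector UV replicate 1 (0.30, adjusted p = 0.0963) or PIP4K2B-knockdown UV replicate 1 (0.32, 0.0880) and under ribosomal protein gene scaling (0.32, 0.0991). The second ended without any 1 of the 4 libraries compared (0.25 to 0.33, adjusted p = 0.0709 to 0.190) and with library totals alone (0.24, 0.0591). NOTCH2 has near-identical copies whose reads cannot be told apart with certainty: NOTCH2NLC, NOTCH2NLA, NOTCH2NLR and NOTCH2NLB were listed at means of 10.8, 8.79, 3.29 and 1.58 CPM.

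The balance of the 3 receptors differed between lines. Of their summed TPM, NOTCH3 made up 25.9% in the untreated empty-vector library and 27.5 and 30.2% after UV. It made up 5.33 to 6.70% in the 4 PIP4K2A-knockdown libraries, 14 to 17.3% in the 4 PIP4K2B-knockdown libraries and 7.81 to 11.2% in the 4 double-knockdown libraries, so the genotypes did not overlap. NOTCH2 made up 58.1 to 82.3% and NOTCH1 9.06 to 18.5% over the 15 libraries.

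**Figure D2:**
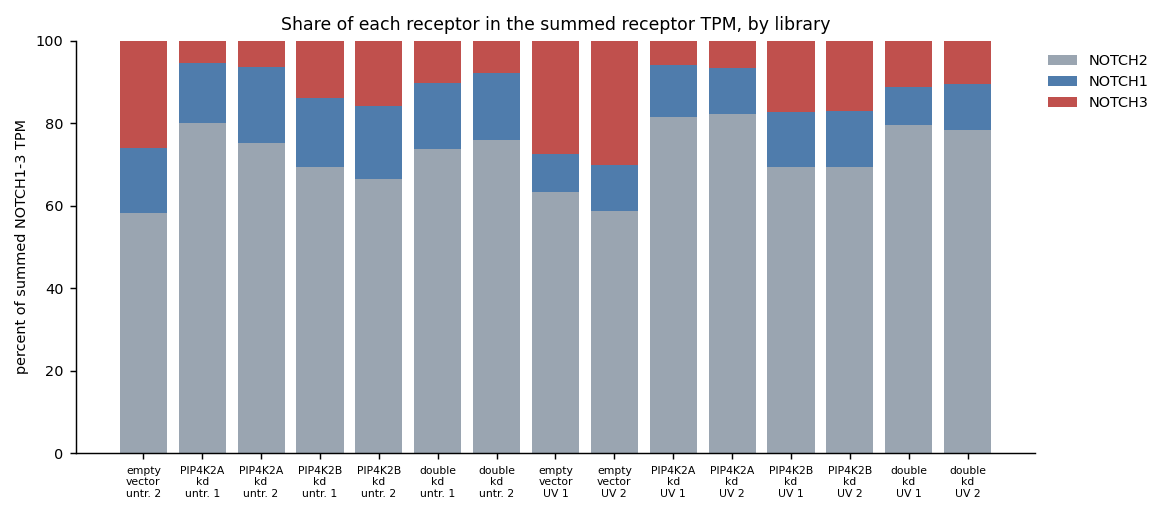
Share of NOTCH2 (grey), NOTCH1 (blue) and NOTCH3 (red) in their summed TPM, in percent from 0 to 100, for each of the 15 libraries; untr. is untreated and kd is knockdown. NOTCH3 takes 25.9 to 30.2% in the 3 empty-vector libraries and 5.33 to 6.70% in the PIP4K2A knockdown.

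RSEM also lists a length per gene and library, the average over its transcripts with each one counted by its share of the expression. It was read for members with a mean of at least 100 counts. For NOTCH1 it was 6337 to 7656 bases (median 7059) in 7 untreated libraries and 7484 to 9519 bases (median 9120) in 8 UV libraries. It was longer after UV in 4 of 4 genotypes, and 7 of 8 UV libraries lay above every untreated one. NOTCH2 was also longer after UV in 4 of 4 genotypes, at 10548 to 10889 against 10758 to 11138 bases, with 6 of 8 UV libraries above all untreated ones. For JAG1 the ranges were 3601 to 4485 and 3896 to 5006 bases, and 3 of 8 UV libraries lay above all untreated ones. NOTCH3 ranged from 5075 to 7201 and from 5345 to 8610 bases, and 1 of 8 did. HES1 was 1484 to 1557 bases untreated and 1432 to 1524 bases after UV, longer after UV in 1 of 4 genotypes, and 0 of 8 UV libraries lay above all untreated ones. No test was made on lengths, and TPM values depend on them. Lengths were read for these members only, so whether longer values after UV were common to all genes was not examined.

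**Figure D3:**
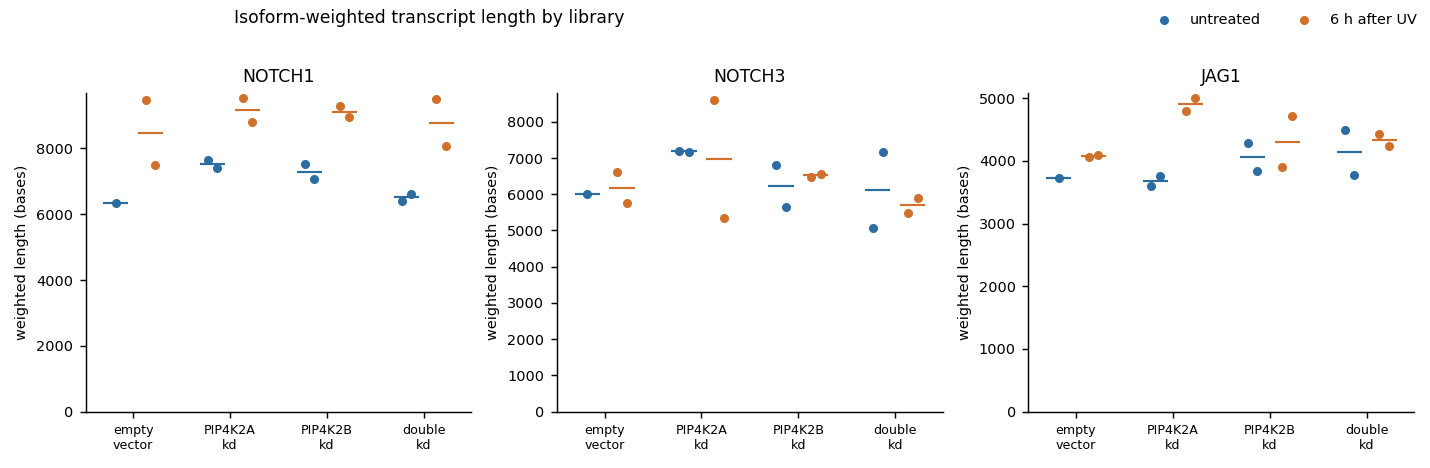
Isoform-weighted transcript length in bases (vertical axis starting at 0) of NOTCH1, NOTCH3 and JAG1 in each of the 15 libraries (points) with the group mean (line), untreated in blue and 6 h after UV in orange; kd is knockdown. NOTCH1 is 6337 to 7656 bases untreated and 7484 to 9519 bases after UV, whereas NOTCH3 overlaps widely between the treatments.

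Among the ligands, JAG1 was the most abundant and was lowest in the double knockdown. Untreated, it was 59.2 CPM in empty-vector cells, 69.8 and 71.8 CPM in the PIP4K2A knockdown, 62.3 and 58.3 CPM in the PIP4K2B knockdown and 40.2 and 43.0 CPM in the double knockdown. With UV it was 36.0 and 33.0 CPM in empty-vector cells, 48.7 and 45.1 CPM in the PIP4K2A knockdown, 37.0 and 36.4 CPM in the PIP4K2B knockdown and 20.7 and 22.9 CPM in the double knockdown. Each genotype was lower after UV without overlap. The PIP4K2A knockdown was the highest and the double knockdown the lowest genotype in both treatments.

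JAG1 fell after UV in all 4 genotypes in edgeR: by 0.52 in empty-vector cells (SE 0.11, adjusted p = 0.0055), by 0.34 in the PIP4K2A knockdown (SE 0.089, adjusted p = 0.0116), by 0.41 in the PIP4K2B knockdown (SE 0.090, adjusted p = 0.00379) and by 0.60 in the double knockdown (SE 0.092, adjusted p = 0.000336). The calls in the PIP4K2A knockdown for JAG1 (-0.37, adjusted p = 0.186) and NOTCH1 (-0.49, 0.128) ended when that knockdown's 4 libraries were fitted alone.

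Against empty-vector cells, JAG1 in the double knockdown fell by 0.53 untreated (SE 0.108, adjusted p = 0.0111) and by 0.61 after UV (SE 0.092, adjusted p = 0.000749). The untreated call ended without double-knockdown untreated replicate 1 (-0.47, adjusted p = 0.105) and under ribosomal protein gene scaling (-0.26). In the PIP4K2A knockdown JAG1 was higher after UV by 0.40 (SE 0.090, adjusted p = 0.00715), a call that ended without empty-vector UV replicate 2 (0.36, adjusted p = 0.0766) and with the groups compared fitted alone (0.39, adjusted p = 0.154). The double knockdown was also below each single knockdown, with differences of -0.76 untreated and -1.02 after UV from the PIP4K2A knockdown and of -0.59 and -0.78 from the PIP4K2B knockdown. All 4 passed.

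JAG2, the other Jagged ligand, was low, between 1.24 and 3.91 CPM. Untreated, it was 3.74 CPM in empty-vector cells, 1.72 and 2.61 CPM in the PIP4K2A knockdown, 3 and 3.91 CPM in the PIP4K2B knockdown and 3.24 and 2.88 CPM in the double knockdown. After UV it was 2.06 and 2.15, 1.24 and 1.54, 2.98 and 3, and 1.61 and 2.24 CPM in the same order of genotypes. The PIP4K2A knockdown held the lowest libraries in both treatments. JAG2 was higher in the PIP4K2B than in the PIP4K2A knockdown after UV by 1.23 (SE 0.246, adjusted p = 0.00674), and this was its only call among the 22 contrasts. It missed the threshold when the groups compared were fitted alone (1.24, adjusted p = 0.0912). DLL1, the Delta ligand, stood at 0.156 to 0.607 CPM with 143 counts over the 15 libraries, and none of its contrasts passed.

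HES1, a repressor and the classical NOTCH target, was the most abundant of the targets. Untreated, it was 16.3 CPM in empty-vector cells, 15.1 and 17.7 CPM in the PIP4K2A knockdown, 15.1 and 13.9 CPM in the PIP4K2B knockdown and 11.5 and 11.9 CPM in the double knockdown. The UV libraries held 10.9 and 10.4 CPM in empty-vector cells, 15.8 and 11.5 CPM in the PIP4K2A knockdown, 12.7 and 12.6 CPM in the PIP4K2B knockdown and 9.82 and 9.28 CPM in the double knockdown. The double knockdown held the lowest libraries of each treatment. None of the 22 contrasts passed for HES1 in the 15-library fit. In untreated double-knockdown cells the value was -0.50 against empty vector (adjusted p = 0.124), and UV values were -0.35, -0.01, 0.11 and 0.03 in empty-vector cells, the PIP4K2A, the PIP4K2B and the double knockdown. Without PIP4K2A-knockdown UV replicate 1 or 2, the libraries of a group whose replicates differed most, the untreated double-knockdown value of HES1 passed at -0.48 (adjusted p = 0.0216) and -0.50 (0.0208), and it also passed with the groups compared fitted alone (-0.50, 0.0126). Other HES1 values passed in some alternatives: the double against the PIP4K2A knockdown in 7 after UV and 4 untreated, the double against the PIP4K2B knockdown in 5 after UV and 3 untreated, and UV in empty-vector cells in 3, so HES1 lay near the threshold.

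HEY1, a repressor of the related HEY family, stood at 1.61 to 3 CPM. UV values were 0.60, 0.33, 0.36 and 0.52 in the 4 genotypes and none passed. In empty-vector cells the 2 UV libraries held 2.88 and 1.61 CPM, on both sides of the untreated value of 1.78 CPM. Neither HES1 nor HEY1, the tested targets among the members, passed against empty-vector cells in the fit with all 15 libraries. A p that misses the threshold does not show that the levels were alike.

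**Figure D4:**
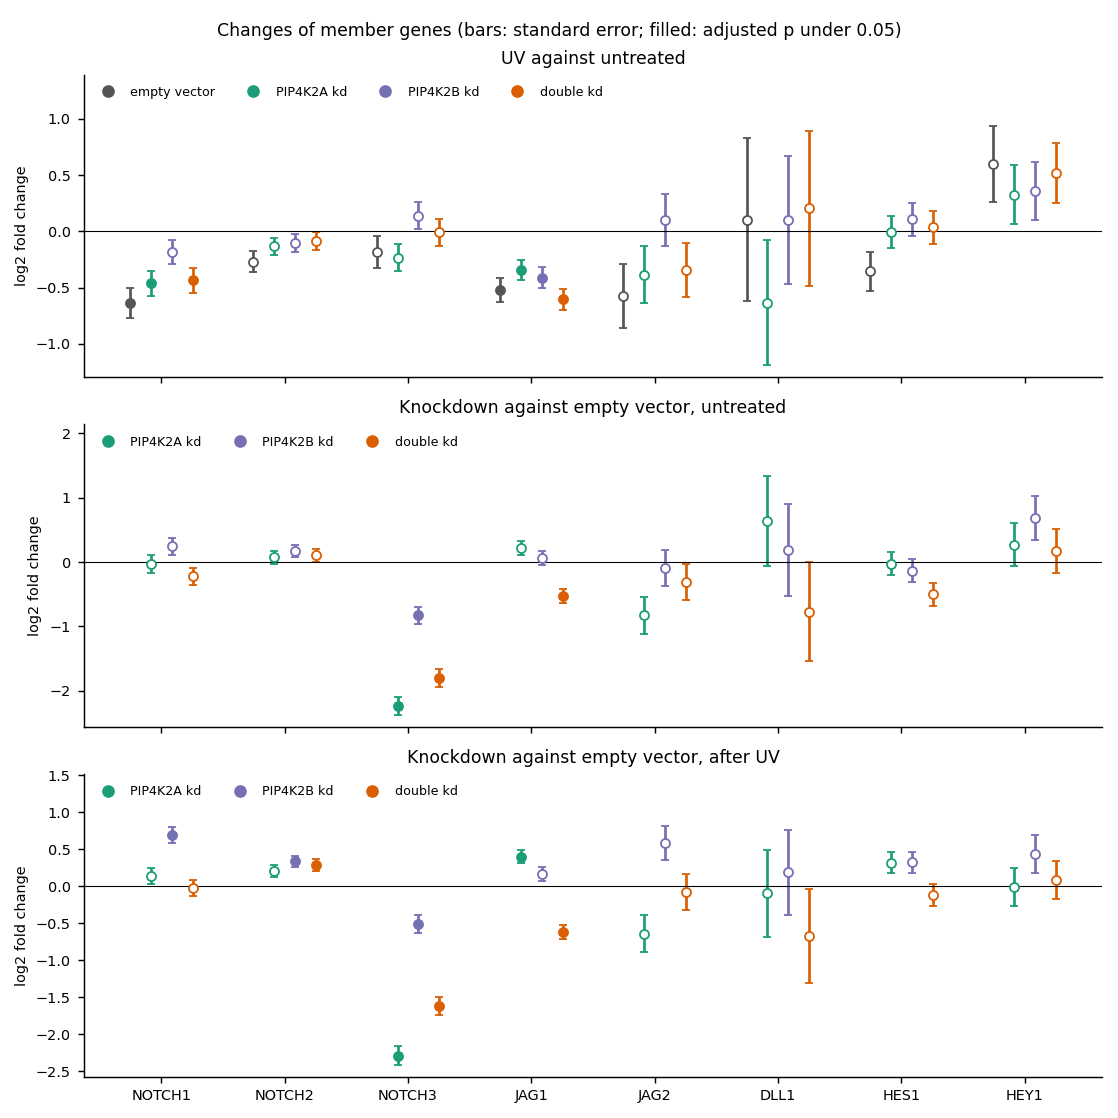
Fitted log2 fold change (points) with its standard error (bars) of the 8 tested members for UV against untreated (top) and for each knockdown against empty vector untreated (middle) and after UV (bottom), coloured by genotype, where filled points have an adjusted p under 0.05. NOTCH3 lies between -0.51 and -2.29 in all 6 knockdown comparisons, and the filled points of the top panel belong to NOTCH1 and JAG1.

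Counted over the 8 tested members, UV gave 7 calls in 32 tests, 0 higher and 7 lower, with 8 at an unadjusted p under 0.05. The calls were 2, 2, 1 and 2 of 8 members in empty-vector cells, the PIP4K2A, the PIP4K2B and the double knockdown. Of all genes, 18.5%, 30.6%, 32.9% and 35.2% were called in these 4 contrasts, and 9.82%, 14%, 15.4% and 16.1% were called lower, and the member counts are not set apart from that background. Their median UV change was -0.31, -0.29, 0.10 and -0.05, beside 0.02, 0.01, 0.00 and 0.02 for all genes. Knockdown against empty vector gave 4 calls in 24 tests in untreated cells, 3 of them NOTCH3, where 7.84%, 10.2% and 6.2% of all genes were called for the PIP4K2A, PIP4K2B and double knockdown. After UV it gave 8 calls in 24 tests, 4 higher and 4 lower, where 20.3%, 19% and 15.4% of all genes were called. Without empty-vector UV replicate 2 those 8 calls became 5.

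Between knockdown lines there were 14 calls in 48 tests. Untreated, 7.1% of all genes were called for the double against the PIP4K2A knockdown, 15.4% for the double against the PIP4K2B knockdown and 3.16% for the PIP4K2B against the PIP4K2A knockdown. After UV the shares were 19.5%, 17.7% and 14.4%. NOTCH1 was lower in the double than in the PIP4K2B knockdown by values of -0.46 untreated and -0.71 after UV. The untreated call ended without PIP4K2B-knockdown untreated replicate 2 (-0.40, adjusted p = 0.0834) and without double-knockdown untreated replicate 1 (-0.49, 0.0517) or 2 (-0.44, 0.0919).

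For the difference of UV responses between genotypes, 0 of 48 member tests passed in edgeR and 2 had an unadjusted p under 0.05, for NOTCH1 and NOTCH3, while DESeq2 also called 0. The share of all genes called was 0.00885%, 0% and 0.00885% for the PIP4K2A, PIP4K2B and double knockdown against empty vector. It was 0.0133% for the double against the PIP4K2A knockdown and 0% for the remaining pairs. The shares for contrasts with the PIP4K2A knockdown depend on its UV replicate 2. Without it, 1037 genes were called higher and 829 lower of 22542 for the PIP4K2A knockdown against empty vector, 751 and 772 for the double against the PIP4K2A knockdown, and 442 and 474 for the PIP4K2B against the PIP4K2A knockdown. The members still had 0 calls in that fit.

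Genes with a pattern over the 8 group means most like 3 of the members were named by Pearson's r on log2(CPM + 1), among 10865 protein-coding genes, as a description. The points share libraries and scaling. Nearest to NOTCH3 were EEF2KMT, which methylates an elongation factor (r = 0.982), ALG1, a mannosyltransferase of N-glycan assembly (0.972), and the transcription factor NFIC (0.954). NFIC was 348 CPM in the untreated empty-vector library and a mean of 195 CPM in the untreated PIP4K2A knockdown. Nearest to JAG1 were SGO1, a protector of centromeric cohesion (0.993), INHBA, a subunit of activin (0.990), and VIRMA, part of the RNA methylation complex (0.990). Mean INHBA was 128 CPM in the untreated PIP4K2A knockdown and 60.1 CPM in the untreated double knockdown. Nearest to HES1 were GLB1, a lysosomal galactosidase (0.972), PRAME (0.957) and SHROOM2 (0.956).

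Beyond the members, 92 genes of the pathway were listed in 10 groups and 81 were tested. UV gave 119 calls in 324 tests, 53 higher and 66 lower (36.7%). Knockdown against empty vector gave 33 calls in 243 tests untreated (16 higher and 17 lower, 13.6%) and 63 in 243 after UV (33 higher and 30 lower, 25.9%). By single contrast, the UV shares were 25.93%, 30.86%, 40.74% and 49.38% in the 4 genotypes. For the PIP4K2A, PIP4K2B and double knockdown they were 11.11%, 17.28% and 12.35% untreated and 32.1%, 29.63% and 16.05% after UV. Each was near or above the share of all genes given above. The genes were not matched for level, so this is not a result about the pathway. The untreated count was 19 without double-knockdown untreated replicate 1, 21 without PIP4K2B-knockdown untreated replicate 1, and 60 or 62 without PIP4K2A-knockdown UV replicate 1 or 2. The count after UV was 38 or 32 without empty-vector UV replicate 1 or 2 and 98 without PIP4K2A-knockdown UV replicate 2.

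Of the ligands outside the members, DLL4, a Delta ligand of vascular cells, had more counts after UV in every genotype. It lies below the 5 CPM set for naming and was chosen after its values were seen. Its counts went from 2 to 42 and 51 in empty-vector cells, from 4 and 3 to 83 and 88 in the PIP4K2A knockdown, from 3 and 4 to 110 and 80 in the PIP4K2B knockdown and from 1 and 0 to 25 and 29 in the double knockdown. Every UV library was above every untreated one. Per library total, the ratio of summed UV to untreated counts was 18.6 in empty-vector cells and 20.9 in the PIP4K2A knockdown. It was 24.5 in the PIP4K2B knockdown and 49.7 in the double knockdown. The untreated sums were only 2, 7, 7 and 1 counts in that order, so the sizes of these ratios are uncertain. DLL4 passed the filter on low counts only through its UV libraries, so these values are a description and its fitted test is not given. The counts of other pathway genes above do include its calls. These were for UV in the 4 genotypes and, after UV, for the PIP4K2A and PIP4K2B knockdown against empty vector. The 6 endothelial markers summed to 2.30 to 5.17 CPM over the same 15 libraries, with untreated and UV ranges that overlap.

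Among genes that process the receptor, LFNG, the lunatic fringe enzyme that adds N-acetylglucosamine to NOTCH, was lower in every knockdown line and after UV. It was 180 CPM in the untreated empty-vector library, 75.8 and 87.8 CPM in the PIP4K2A knockdown, 50.9 and 57.0 CPM in the PIP4K2B knockdown and 109 and 119 CPM in the double knockdown. After UV it was 89.7 and 97.1, 26.9 and 33.3, 24.3 and 24.7, and 55.2 and 56.4 CPM in the same order. The 4 genotypes did not overlap in either treatment. LFNG fell by 1.18, 1.71 and 0.68 in the untreated PIP4K2A, PIP4K2B and double knockdown (edgeR adjusted p = 0.000282, 1.12e-05 and 0.0106), and the last call ended without double-knockdown untreated replicate 1 (-0.60, adjusted p = 0.0854) and under ribosomal protein gene scaling (-0.41, 0.140). It fell after UV by 0.69, 1.19, 0.83 and 0.71 in the 4 genotypes. Of the 10 genes of this list, 1, 1, 4 and 6 rose and 1, 1, 3 and 2 fell after UV in the 4 genotypes, ordered as before. The list's medians were 0.11, 0.25, 0.27 and 0.33. Here and for the lists that follow, the all-gene medians of 0.02, 0.01, 0.00 and 0.02 and the shares of all genes called for UV given above (18.5%, 30.6%, 32.9% and 35.2%) are the background.

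Of the genes that act on ligands, NEURL1B, an E3 ubiquitin ligase, was 70.8 CPM in the untreated empty-vector library and 102 to 128 CPM in the untreated knockdown lines. It fell after UV by 1.05, 1.39, 0.85 and 1.21 in the 4 genotypes, to 28.3 to 54.3 CPM. It rose by 0.78 in the untreated PIP4K2A knockdown (adjusted p = 0.00178 in edgeR) and by 0.79 in the untreated PIP4K2B knockdown (0.00113). A rise in the untreated double knockdown was called too, and it ended without untreated replicate 1 or 2 of that line. For the 6 tested genes of its list, 0 were higher and 1 lower after UV in empty-vector cells and 1 was higher and 1 lower in each knockdown line, with medians of 0.17, 0.13, 0.22 and 0.15 in the 4 genotypes.

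In receptor turnover, NEDD4, a ubiquitin ligase, was 48.3 CPM in the untreated empty-vector library and 76.3 to 103 CPM in the untreated knockdown lines. It rose by 0.74, 1.11 and 0.77 in the PIP4K2A, PIP4K2B and double knockdown untreated and by 0.77, 1.04 and 0.74 after UV. FBXW7, the F-box protein that marks the intracellular domain for degradation, fell after UV by 1.03, 1.05, 1.32 and 1.27 in the 4 genotypes and rose in the untreated PIP4K2A and PIP4K2B knockdown by 0.74 and 1.04. In the double knockdown its value was 0.27 (adjusted p = 0.279 in edgeR). Of the 11 genes in this list, 0, 0, 0 and 1 rose and 4, 3, 2 and 2 fell after UV in the 4 genotypes. The medians were -0.26, -0.0034, -0.12 and -0.18.

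Of the 9 genes of the RBPJ complex, 0, 0, 0 and 1 rose and 3, 3, 3 and 5 fell after UV. The medians were -0.32, -0.22, -0.28 and -0.44. MAML1, a Mastermind-like coactivator, was 55.4 CPM in the untreated empty-vector library and 74.5 to 85.7 CPM in the untreated knockdown lines. It fell after UV by 0.52, 0.62, 0.37 and 0.49 in the 4 genotypes. MAML1 was also called higher than in empty-vector cells in all 3 knockdown lines, untreated and after UV. In the untreated double knockdown the rise was 0.58 (adjusted p = 0.00852 in edgeR). The untreated rise in the PIP4K2B knockdown ended without that line's untreated replicate 1. For the PIP4K2A knockdown the UV fall and both rises ended with the groups compared fitted alone. That line's rise after UV also ended without empty-vector UV replicate 1.

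Among 14 corepressors, 2, 3, 2 and 3 rose and 3, 3, 4 and 6 fell after UV. The medians were -0.10, 0.03, -0.11 and -0.08. TLE1 and TLE3, Groucho-family corepressors, fell after UV in all 4 genotypes, by 0.44 to 0.69 and by 0.53 to 0.80. In the PIP4K2A knockdown both missed the threshold when its groups were fitted alone (-0.55, adjusted p = 0.0858, and -0.64, 0.0969). TLE2, of the same family, rose by 0.52 to 0.82, a direction that reversed under ribosomal protein gene scaling (-0.29 to -0.04). The calls of TLE3 in the PIP4K2B knockdown ended without its untreated replicate 1 (-0.53, adjusted p = 0.0561) or UV replicate 2 (-0.48, 0.0814), and those of TLE2 ended in empty-vector cells without UV replicate 2 (0.60, 0.110) and in the PIP4K2A knockdown without untreated replicate 1 (0.34, 0.192) or UV replicate 1 (0.24, 0.226). With library totals alone TLE2 was 0.43 (adjusted p = 0.118) in empty-vector cells and 0.27 (0.197) in the PIP4K2A knockdown, and 0.49 (0.205) in the latter with its groups fitted alone.

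Among 8 genes of receptor cleavage, 2, 2, 3 and 3 rose and 0, 0, 1 and 0 fell after UV. The medians were -0.01, -0.05, 0.01 and -0.12. In empty-vector cells the rise of APH1A was lost without UV replicate 1 (0.46, adjusted p = 0.0501) or 2 (0.44, 0.0669) and with library totals alone (0.19, 0.261), and that of PSENEN, another subunit, held in 13 of 23 alternatives and was 0.77 (0.167) without UV replicate 2. APH1A, a subunit of gamma-secretase, rose by 0.61 in the double knockdown, a direction that also reversed under ribosomal protein gene scaling (-0.26). Of 11 other genes known as NOTCH targets in some tissues, 2, 2, 3 and 2 rose and 1, 1, 3 and 3 fell after UV. Against empty vector, 0, 0 and 1 rose and 0, 2 and 3 fell in the untreated PIP4K2A, PIP4K2B and double knockdown, with 3 at an unadjusted p under 0.05 in edgeR in the first. SNAI1, a repressor of epithelial genes, was 8.99 to 14.9 CPM in the 7 untreated libraries and 25.1 to 48.0 CPM in the 8 UV libraries. It rose by 1.73, 1.88, 1.75 and 1.69 in the 4 genotypes (adjusted p from 6.52e-05 to 0.00113 in edgeR). Of the 7 other HES and HEY family genes 2 were tested, HES6 and HES7, with means of 0.76 and 0.64 CPM. HES6 rose after UV in the PIP4K2A knockdown by 1.34 (adjusted p = 0.0158 in edgeR). Against empty vector it fell by 1.60 in the untreated PIP4K2A knockdown (0.0396) and by 1.08 in the PIP4K2B knockdown after UV (0.0370). HES7 rose in the PIP4K2B knockdown by 1.59 untreated (0.0485) and by 1.34 after UV (0.0238). These genes lie below the level for naming and were named after their values were seen. Their single calls were not followed through the alternatives, and the untreated ones rest on 1 empty-vector library.

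**Figure D5:**
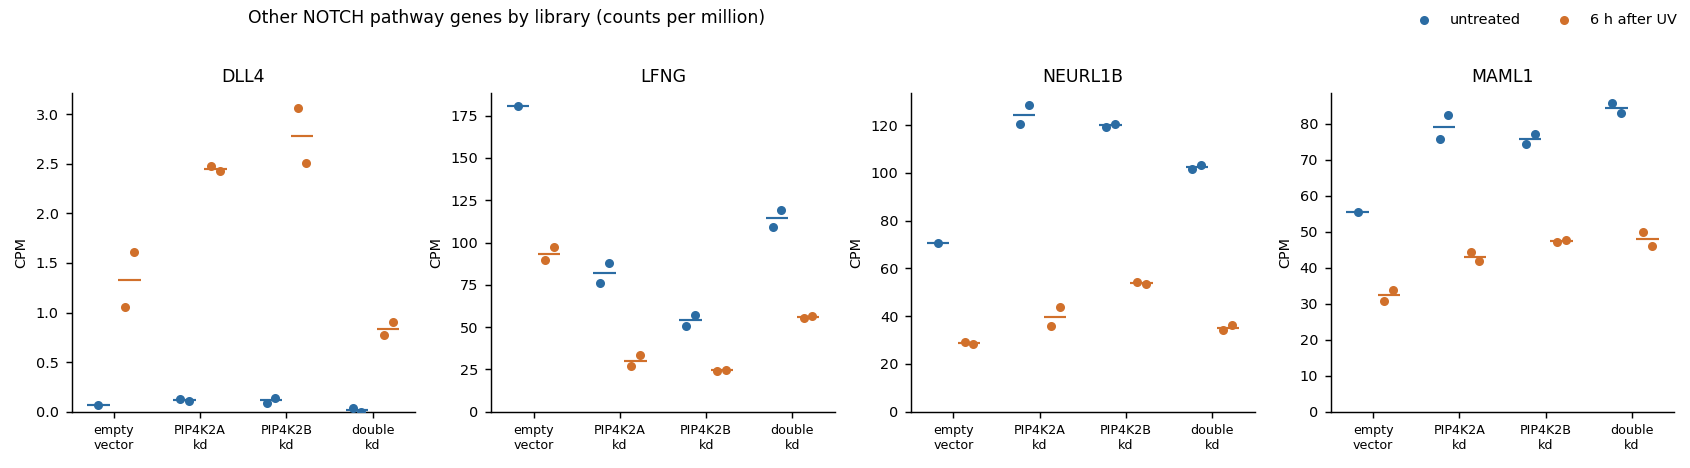
Level in CPM (vertical axes starting at 0) of DLL4, LFNG, NEURL1B and MAML1 in each of the 15 libraries (points) with the group mean (line), untreated in blue and 6 h after UV in orange; kd is knockdown. DLL4 is at most 0.141 CPM untreated and 0.775 to 3.06 CPM after UV, and LFNG is 180 CPM in the untreated empty-vector library and 24.3 to 24.7 CPM in the PIP4K2B knockdown after UV.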

How the data were processed

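RNA from 16 libraries was measured after removal of ribosomal RNA, with directional kits per the labels. The deposited tables hold 1 library each. Per the file headers their columns are expected counts (RSEM estimates, with no normalization), the authors' TPM and, other than a count, a transcript length in bases that depends on the isoform mix of the gene in that library. Per the submitters' processing notes STAR, SAMtools, RSEM and GRCh38 were used. The sources used here give no versions, annotation or strand setting, so reads of antisense genes may be included. A symbol was found for 60437 identifiers, and GENCODE 29 holds 58420 of them.

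The members, the gene lists and the naming rule were chosen with earlier results of these data known. Empty-vector untreated replicate 1 was left out, as the choice of members states. It had 1.28 M counts, of which 14.6% were mitochondrial against 2.20 to 3.43% elsewhere. Across genes it correlated with the others at r = 0.468 to 0.537, against 0.968 to 0.998 among them.

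Rounded expected counts went into edgeR 4.0.16 (glmQLFit, glmQLFTest, R 4.3.3) with filterByExpr at a minimum count of 10, TMM and 1 term per group. The p-values were adjusted by Benjamini-Hochberg over all 22597 genes, and an adjusted p under 0.05 was a call. The SE is the log2 change divided by the square root of F. CPM uses library totals only. The 22 contrasts gave UV in 4 genotypes, knockdown against empty vector, knockdown against knockdown, and differences of UV responses. On simulated counts for the untreated PIP4K2A knockdown (21465 genes) the test found 7.46% of 1.5-fold, 37.3% of 2-fold and 66.7% of 4-fold changes, with 2 false calls. For UV in that line (21495 genes) it found 10.5%, 58.2% and 87.9%, with 9 false calls. Each simulation changed only 67, 67 and 66 genes at these folds, whereas the measured contrasts called 1771 and 6921 genes. The adjusted threshold depends on how many genes change, so these shares cannot be read as the sensitivity in the measured contrasts.

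Besides all members, other pathway genes could be named if called and at 5 CPM or more on average, up to 5 per list, and the text gives a part of them. For 3 members the 3 most similar protein-coding genes were named. Alternatives were DESeq2 1.42.0, RLE size factors, scaling to ribosomal protein genes, no filter, a filter of CPM over 1 in 2 libraries, all 16 libraries, a fit of the compared groups alone, a block for replicate number, each library left out and, added after seeing the data, library totals without composition factors. Tables and plots used matplotlib 3.10.9, scipy 1.17.1, numpy 2.4.6 and pandas 2.3.3 in Python 3.11.15.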

Additional observations from a re-analysis of the deposited data

Results flagged for a closer look

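The set-aside library, labelled empty-vector untreated replicate 1, held some targets of the pathway above, and others below, the range of the other 15 libraries. HEY1 stood at 59.45 CPM (76 counts) against 1.61 to 3 CPM, and NRARP at 7.041 CPM (9 counts) against at most 0.138 CPM. Among related genes, HES2 and HEY2 stood at 26.6 CPM each (34 counts each), where the others reached at most 0.126 and 0.0344 CPM. HES7 stood at 3.911 CPM (5 counts) and HEYL at 5.476 CPM (7 counts), above the other libraries' highest values of 1.44 and 0.186 CPM. HES1 was low there, at 6.26 CPM (8 counts) against 9.28 to 17.7 CPM, and HES6 had 0 counts against at least 0.321 CPM. NOTCH3 was also low, at 2.35 CPM (3 counts). Some markers of every cell type list were also high there. The 6 endothelial markers summed to 155 CPM against 2.30 to 5.17 CPM. The 6 blood markers summed to 74.3 CPM against 0.411 to 1.30 CPM. In both lists 6 of 6 markers were above all 15 other libraries. In each of the other lists 3 markers were. The epithelial sum of 249 CPM and the smooth muscle and pericyte sum of 291 CPM lay within the ranges of the other libraries. The bone and mesenchymal sum of 2134 CPM lay below that range. The part of other cell types or of RNA quality in the target levels was not tested.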

How the results depend on the processing

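Depth limits HES4, NRARP and DLL1, and untreated empty-vector cells have 1 library. With all 16 libraries the biological coefficient of variation was 41.93% (22090 genes) against 11.35%, and the members had 0 calls for UV, 0 for knockdown untreated, 0 after UV and 0 between knockdowns; the other pathway genes had 9, 1 and 1 in the first 3. In that setting NOTCH1 for UV in empty-vector cells was 0.12, LFNG 0.20, MAML1 0.27 and TLE1 0.062, and against empty vector untreated NOTCH3 and SOX9 in the PIP4K2B knockdown were 0.13 and 0.26 and LFNG in the double knockdown 0.25. Under ribosomal protein gene scaling, which moved the median UV change of all genes to between -0.90 and -0.70, UV gave 25 member calls, all lower, and 268 of the other pathway genes (8 higher and 260 lower). There, for UV in the PIP4K2B knockdown, NOTCH3 was -0.77, HES1 -0.80, JAG2 -0.81 and PSENEN -0.20, and HES1 in the double knockdown was -0.84. APH1A was -0.28, -0.48, -0.40 and -0.26 and TLE2 -0.037, -0.29, -0.089 and -0.090 in empty-vector cells, the PIP4K2A, the PIP4K2B and the double knockdown. That scaling split the member calls of knockdown against empty vector into 1 higher and 3 lower untreated and 6 higher and 4 lower after UV. Library totals alone gave 18 member calls for UV, all lower. The cause was not tested. Leaving out 1 library gave 7 to 9 member calls for UV, 3 to 5 for knockdown untreated, 5 to 10 after UV, 12 to 20 between knockdowns and 0 to 0 for differences of UV responses, and 94 to 174, 19 to 62 and 32 to 98 calls of other pathway genes. NOTCH3 in the PIP4K2A and double knockdown kept its call in all alternatives but that with 16 libraries. Replicate numbers did not pair the groups (21 pairs of 7 groups, r -0.117 to 0.187, 3 over 0.1). With the replicate number as a block the member calls were 7, 4, 8, 14 and 0, where NOTCH3 in the double against the PIP4K2A knockdown untreated was lost and JAG2 in the double against the PIP4K2B knockdown after UV was gained.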
